A study of Mus musculus with 8 samples.

Results

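A set of 10 genes that regulate fuel use in heart muscle was followed across 8 heart libraries of WT mice and mice lacking TIGAR. They were taken by symbol from the 16994 genes of the count table, and all 10 members were found and passed the filter on low counts. They are the nuclear receptors *Ppara*, *Ppard*, and *Pparg*, the coactivators *Ppargc1a* (PGC-1α) and *Ppargc1b* (PGC-1β), the estrogen-related receptors *Esrra*, *Esrrb*, and *Esrrg*, and the retinoid X receptors *Rxra* and *Rxrg*. The mice were male, and the groups were WT and TKO, the latter with a whole-body knockout of *Tigar* (labelled TIGAR KO). Each genotype gave 1 library from each of 4 tissues, namely the left ventricle (LV) and, after myocardial infarction (MI) by permanent ligation of the left anterior descending artery, the infarct zone, the border zone, and the remote zone. MI was performed at 16 weeks of age. RNA of 3 mice was pooled for each infarct zone library. The number of mice behind the other libraries, the time from MI to tissue collection, the age and any sham surgery of the LV mice, and the strain background of WT and TKO were not given in the sources used here. Each group is 1 library, so a difference between 2 libraries could not be set against the spread of replicates and carries no p-value.

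PPARs, ERRs, and RXRs are transcription factors that bind DNA in the promoters and enhancers of genes for fatty acid uptake, β-oxidation, the citric acid cycle, and the respiratory chain. PPARs bind as pairs with an RXR and respond to fatty acids and their derivatives, whereas ERRs have no known natural hormone and depend on coactivators. PGC-1α and PGC-1β do not bind DNA themselves and raise transcription when docked on PPARs and ERRs. In heart muscle these proteins maintain the high mitochondrial content of cardiomyocytes, and a lower expression of several of them has been described in failing hearts.

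Total estimated counts per library lay between 27429240 and 33799249. *Tigar* had 1066 to 2215 counts in the 4 WT libraries and 51 to 87 in the 4 TKO libraries, as labelled. Levels are given as CPM (counts divided by the total and multiplied by 1000000) after scaling by edgeR's TMM method, whose factors were 1.54 and 1.26 in the WT and TKO infarct zone and 0.866 to 0.956 elsewhere. Scaling by total counts instead moved the median log2 ratio of all 12999 genes tested from 0.02 to 0.84 for WT infarct zone over LV, from 0.02 to 0.55 for TKO infarct zone over LV, and from 0.01 to -0.29 for TKO over WT in the infarct zone, so a ratio with an infarct zone library is read against the other genes of those libraries. The WT LV library stood apart in adipocyte genes. *Adipoq*, the adipocyte hormone adiponectin, had 370 counts there, 6 in the TKO LV, and 6 to 109 in the 7 other libraries as a whole, and *Ucp1*, the uncoupling protein of brown fat, had 112 counts there and 0 to 3 elsewhere. Each ratio of 2 libraries is given with a 95% exact binomial interval on the counts, which covers counting error only.

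Corrected for exon length, *Esrra* was the most abundant of the 10 regulators in each of the 8 libraries, with a median of 36.9 CPM per kb. *Rxrg* came next in 7 libraries, with a median of 22.5 CPM per kb, and was overtaken by *Rxra* and *Ppargc1a* in the WT infarct zone. *Ppargc1a* and *Rxra* followed with medians of 14.8 and 11.7 CPM per kb. *Ppara*, *Esrrg*, *Esrrb*, and *Ppard* were close together, with medians of 5.97, 5.30, 4.85, and 3.76 CPM per kb. *Ppargc1b* and *Pparg* were the least abundant, with medians of 2.63 and 2.19 CPM per kb. The span from the most to the least abundant regulator was widest in the TKO remote zone (21.2-fold) and narrowest in the WT infarct zone (9.78-fold). Since no group has a replicate, an order of neighbors as close as *Esrrg* and *Esrrb* has no check beyond counting error. The exons of *Esrra* overlap those of *Trmt112* on the opposite strand, and whether the libraries keep strand was not given in the sources used here, so its counts may hold reads of that gene. The exons of the other 9 regulators overlap no other annotated gene.

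**Figure D1:**
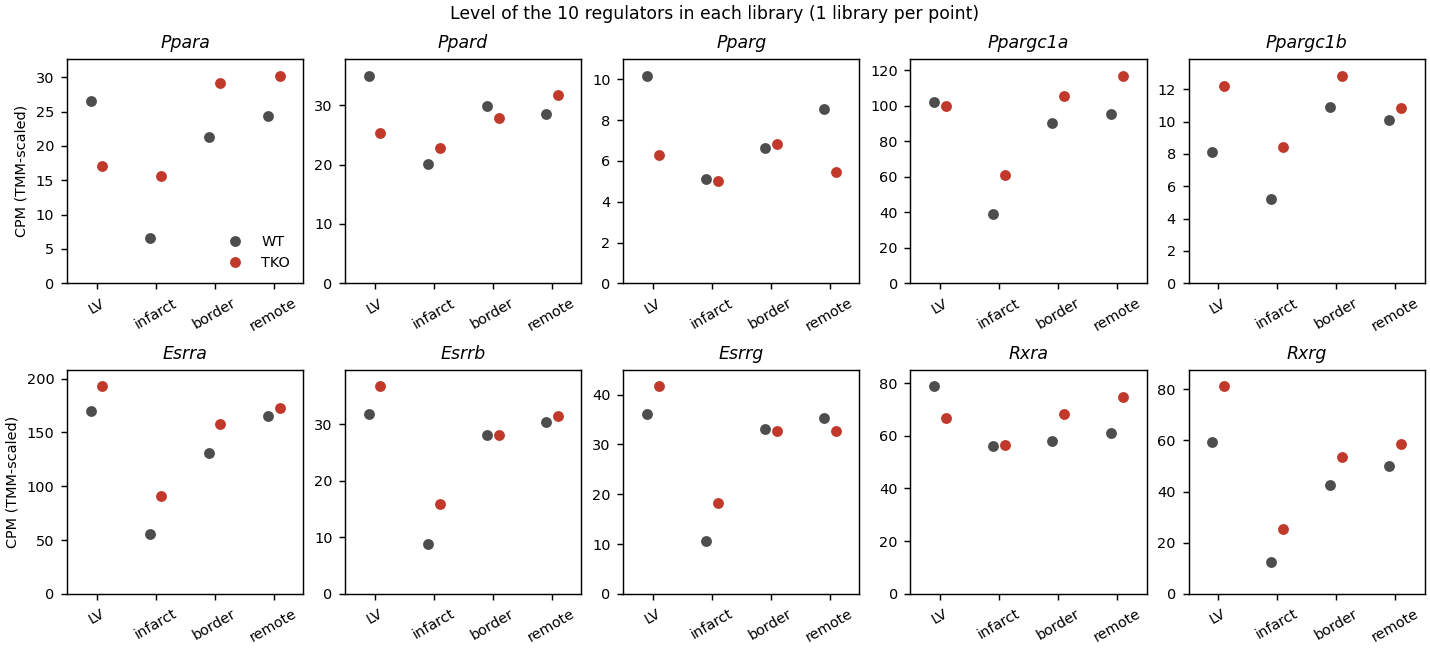
Level of each regulator in CPM after TMM scaling (vertical axis from 0, its own range in each panel) in the LV and the infarct, border, and remote zones, 1 library per point, WT gray and TKO red. The WT infarct zone holds the lowest point of every panel except that of *Pparg*, where the TKO infarct zone (5.01 CPM) lies just under it (5.11 CPM).

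The regulators were lower in the infarct zone than in the LV. Across the 2 genotypes, the quasi-likelihood test of edgeR (p-values adjusted over all 12999 genes by the method of Benjamini and Hochberg, threshold 0.05) called 8 of 10 regulators lower and 0 higher, where the background of genes called lower was 28.6% and of genes called higher 28.2%. The median log2 fold change was -1.06 for the regulators and 0.02 for all genes. The 5 calls with the lowest adjusted p were those of *Rxrg*, *Esrra*, *Esrrb*, *Esrrg*, and *Ppargc1a*, and each of the 5 was also past the threshold in 13 of 13 alternative fits. *Ppargc1b* was past it in 9, *Ppard* and *Pparg* in 5, *Ppara* in 4, and *Rxra* in 2 of the 13. With total counts as the scaling 5 regulators were called, and *Ppard*, *Pparg*, *Ppargc1b*, and *Rxra* turned above 0, although all 10 still lay below the median of all genes in both genotypes. With the remote zone in place of the LV as the reference, and both LV libraries left out, 8 of 10 were again called lower and 0 higher, against 28.6% and 28.7% of all genes. In that fit *Ppara* was called and *Pparg* was not (log2 fold change -0.45, adjusted p = 0.118 by edgeR). These fits treat the genotypes as replicates of a region, so they bear on these libraries and not on mice.

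*Ppara* is the fatty acid sensor that drives β-oxidation genes in cardiomyocytes. Its TKO over WT ratio was the highest of the 10 in the infarct, border, and remote zones. In the remote zone it lay just above that of *Rxra* (1.24 and 1.23), and in the LV only *Pparg* had a lower one. On GRCm38, *Ppara* (ENSMUSG00000022383) lies at chr15:85734983-85802819 on the plus strand, *Ppard* (ENSMUSG00000002250) lies at chr17:28232700-28301474 on the plus strand, and *Pparg* (ENSMUSG00000000440) lies at chr6:115360951-115490399 on the plus strand. In WT hearts its level was 26.5, 6.52, 21.4, and 24.4 CPM in the LV, infarct, border, and remote libraries, respectively. In TKO hearts it was 17.1, 15.6, 29.2, and 30.2 CPM in the same order. The WT infarct zone held the lowest value, and the TKO LV was below all 5 libraries from outside the infarct. The infarct zone over LV ratio of *Ppara* was 0.246 for WT (0.214 to 0.283), and the TKO ratio was 0.909 (0.801 to 1.03). Against the remote zone of the same genotype the WT ratio was 0.267 (0.232 to 0.307), while TKO had 0.515 (0.462 to 0.572). The fitted log2 fold change of *Ppara*, infarct zone against LV, was -1.08 and missed the threshold (adjusted p = 0.0528 by edgeR), and that against the remote zone was -1.39 (adjusted p = 0.00448).

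*Ppard*, the PPAR found in most tissues, varied little. In the same order of tissues its level was 35.0, 20.1, 29.9, and 28.5 CPM for WT hearts, against 25.4, 22.9, 27.9, and 31.7 CPM for TKO hearts. The 8 values lay within 1.74-fold of each other. The fitted log2 fold change of *Ppard*, infarct zone against LV, was -0.49 by edgeR (adjusted p = 0.0465) and 0.20 (adjusted p = 0.28) with total counts. *Pparg*, which directs adipocyte formation, was the least abundant PPAR by CPM in every library. It had 10.2, 5.11, 6.62, and 8.54 CPM in WT hearts and 6.29, 5.01, 6.81, and 5.48 CPM in TKO hearts. Its highest value was in the WT LV, the library with the most counts of adipocyte genes. The part of adipocyte RNA in that value was not tested. The fitted log2 fold change of *Pparg*, infarct zone against LV, was -0.67 by edgeR (adjusted p = 0.0498), and it was 0.01 with total counts (adjusted p = 0.963).

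Of the coactivator genes, *Ppargc1a* (ENSMUSG00000029167) lies at chr5:51454250-51567726 on the minus strand, and *Ppargc1b* (ENSMUSG00000033871) lies on chromosome 18. *Ppargc1a*, which induces mitochondrial biogenesis, was 102.1, 39.2, 90.2, and 95.6 CPM in the LV, infarct, border, and remote libraries of WT hearts. The TKO libraries had 99.8, 61.2, 105.2, and 116.9 CPM. Both infarct zone libraries lay below the 6 others, and the TKO value was the higher of them. The infarct zone over LV ratio was 0.384 for WT (0.361 to 0.408), that of TKO was 0.613 (0.579 to 0.650), and the fitted log2 fold change of *Ppargc1a* was -1.04 (adjusted p = 0.00286 by edgeR). *Ppargc1b*, its relative of lower abundance here, was 8.14, 5.20, 10.9, and 10.1 CPM in WT hearts and 12.2, 8.45, 12.8, and 10.9 CPM in TKO hearts. The TKO infarct zone value lay slightly above the WT LV value, so the zones overlapped. The log2 fold change of *Ppargc1b*, infarct zone against LV, was -0.58 (adjusted p = 0.0312 by edgeR), and it was 0.09 with total counts (adjusted p = 0.692).

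The 3 estrogen-related receptors all fell severalfold in the WT infarct zone, and *Esrrb* and *Esrrg* kept nearly the same proportion to each other. *Esrra* (ENSMUSG00000024955) lies at chr19:6910977-6921813 on the minus strand, *Esrrb* (ENSMUSG00000021255) lies at chr12:86361117-86521628 on the plus strand, and *Esrrg* (ENSMUSG00000026610) lies at chr1:187608791-188214885 on the plus strand. *Esrra*, the most abundant, was 169.8, 55.9, 131.4, and 165.2 CPM in the LV, infarct, border, and remote libraries of WT hearts, and 192.9, 90.9, 158.1, and 172.7 CPM in those of TKO hearts. *Esrrb*, best known from embryonic stem cells, was 31.9, 8.84, 28.2, and 30.5 CPM in WT and 36.8, 15.9, 28.1, and 31.6 CPM in TKO. *Esrrg*, which controls oxidative metabolism in the perinatal and adult heart, was 36.0, 10.6, 33.1, and 35.3 CPM in WT and 41.7, 18.3, 32.7, and 32.7 CPM in TKO. For all 3 receptors the WT infarct zone was lowest, the TKO infarct zone came next, and the 6 other libraries lay above both. The log2 fold changes, infarct zone against LV, were -1.33 for *Esrra* (adjusted p = 0.00162 by edgeR), -1.503 for *Esrrb* (adjusted p = 0.0019), and -1.45 for *Esrrg* (adjusted p = 0.00226). Within WT the 3 ratios were 0.329, 0.277, and 0.293, and within TKO 0.471, 0.431, and 0.438. The count of *Esrrg* per count of *Esrrb* stayed between 1.04 and 1.20 in the 8 libraries, and the 95% counting intervals of these ratios all overlapped. *Esrrg* per *Esrra* varied more, from 0.189 in the WT infarct zone (0.170 to 0.209) to 0.252 in the WT border zone (0.235 to 0.270).

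The 2 retinoid X receptors had unlike ranges. *Rxra* (ENSMUSG00000015846) lies at chr2:27676440-27762957 on the plus strand, and *Rxrg* (ENSMUSG00000015843) lies at chr1:167598384-167639623 on the plus strand. *Rxrg*, the form enriched in striated muscle and brain, was 59.2, 12.4, 42.6, and 49.95 CPM in the LV, infarct, border, and remote libraries of WT hearts, and 81.2, 25.3, 53.5, and 58.6 CPM in those of TKO hearts. *Rxra*, the form present in most tissues, was 78.8, 56.2, 58.2, and 60.9 CPM in WT and 66.9, 56.4, 68.3, and 74.7 CPM in TKO. *Rxrg* spanned 6.54-fold over the 8 libraries, the widest range of the 10 regulators, and *Rxra* 1.403-fold, the narrowest. The infarct zone over LV ratio of *Rxrg* was 0.210 for WT (0.190 to 0.231), that of TKO was 0.312 (0.288 to 0.337), and its log2 fold change of -1.94 had the lowest adjusted p of the 10 (0.000895 by edgeR). For *Rxra* the WT ratio was 0.713 (0.672 to 0.756), while TKO had 0.844 (0.791 to 0.900), and its log2 fold change of -0.37 by edgeR missed the threshold (adjusted p = 0.0686) and was 0.32 with total counts. In border and remote zones no regulator was called against the LV by edgeR or DESeq2, where the background of genes called lower in the border zone was 0.0462%, higher 0.669%, and in the remote zone 0%. The single unadjusted p under 0.05 was that of *Rxrg* in the border zone by edgeR (log2 fold change -0.54, adjusted p = 0.233).

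Both retinoid X receptor genes hold, in one of their annotated promoters, the letters AAGGTCA, an extended form of the half-site that nuclear receptors of this kind bind, and the windows are shown because one belongs to the regulator that fell most and the other to the regulator with the narrowest range. Promoter windows of 300 bases (250 before and 50 after a start site, RefSeq, GRCm38.p6) were matched for 9 of 10 regulators, 17 windows in all, and were searched for AAGGTCA on both strands. It was present in 2 of 17 windows and in 4.72% of the 32851 windows of all genes. The *Rxrg* window lies on chromosome 1, plus strand, at chr1:167618015-167618314, and the motif (capitals) begins 89 bases before that start site. The *Rxra* window lies on chromosome 2, plus strand, at chr2:27709042-27709341, and the motif begins 49 bases before it.
Rxrg: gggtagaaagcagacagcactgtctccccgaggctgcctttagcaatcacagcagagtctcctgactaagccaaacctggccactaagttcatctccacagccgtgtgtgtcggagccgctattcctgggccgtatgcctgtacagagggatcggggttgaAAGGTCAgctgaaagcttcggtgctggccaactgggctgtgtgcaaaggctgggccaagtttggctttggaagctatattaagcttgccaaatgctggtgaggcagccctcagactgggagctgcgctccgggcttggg
Rxra: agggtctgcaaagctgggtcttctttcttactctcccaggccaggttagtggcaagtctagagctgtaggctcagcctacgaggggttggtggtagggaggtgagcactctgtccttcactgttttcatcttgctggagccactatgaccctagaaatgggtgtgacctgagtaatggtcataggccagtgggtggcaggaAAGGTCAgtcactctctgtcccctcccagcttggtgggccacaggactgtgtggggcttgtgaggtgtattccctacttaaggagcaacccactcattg
A match of letters is not a measured binding site, and the other *Rxrg* and *Rxra* windows did not hold it.

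**Figure D2:**
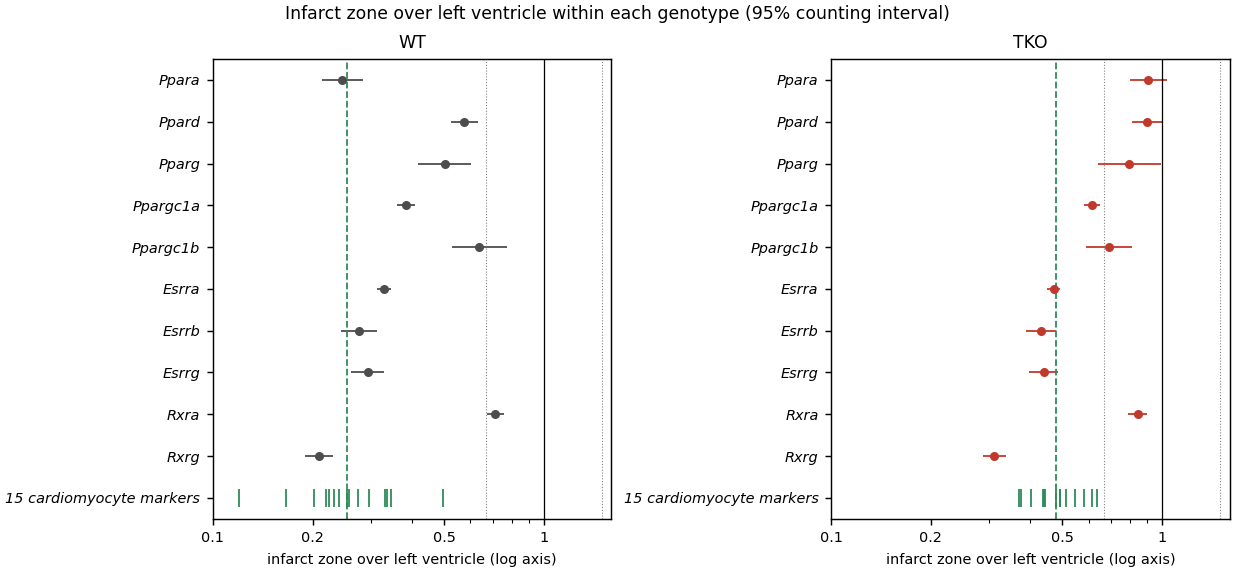
Infarct zone over LV ratio (log axis) of each regulator within WT and within TKO, with 95% counting intervals. Green ticks are the 15 cardiomyocyte markers, the dashed green line is their median (0.254 in WT, 0.478 in TKO), and dotted lines mark 1.5-fold. *Ppard*, *Pparg*, *Ppargc1b*, and *Rxra* lie to the right of all markers in both panels.

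Markers of cardiomyocytes moved with these values. All 15 cardiomyocyte markers, contractile and calcium-handling genes such as *Myh6* and *Atp2a2*, were called lower in the infarct zone than in the LV (median log2 fold change -1.4997). Their summed level was 77269 CPM in the WT LV and 80692 in the TKO LV, and 18326 and 37034 CPM in the WT and TKO infarct zone. All 10 fibroblast and all 10 macrophage markers were called higher, with medians of 2.40 and 1.79 on the log2 scale. In bulk tissue fewer cardiomyocytes and less RNA per cardiomyocyte cannot be told apart. Set against the markers of the same libraries, the regulators fell into groups. In WT hearts the infarct zone over LV ratio of *Ppara*, *Ppargc1a*, *Esrra*, *Esrrb*, *Esrrg*, and *Rxrg* lay within the range of the 15 markers (0.120 to 0.495), whereas *Ppard*, *Pparg*, *Ppargc1b*, and *Rxra* lay above all 15. Past 1.5-fold, 9 of 10 regulators were lower in the WT infarct zone than in the LV, against 25.8% of all genes, and 5 of 10 in the TKO infarct zone, against 20.2%. With total counts 5 and 3 regulators were lower by that much, beside 1065 and 715 of all genes (3353 and 2628 with TMM), and genes past 1.5-fold were 88.2% and 89.8% higher (52.5% and 56.4% with TMM). In TKO hearts the same 4 regulators and *Ppara* lay above the marker range (0.370 to 0.635), and *Rxrg* lay below it. Against the remote zone, which uses no LV library, *Ppard*, *Pparg*, *Ppargc1b*, and *Rxra* were above all 15 markers in both genotypes and the 6 others, *Ppara* and *Rxrg* included, were within their range. Where a regulator lies among the markers does not depend on how the libraries are scaled, and the markers' part in the fall of the regulators was not tested.

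In the infarct zone, the TKO library had higher levels than the WT library for most regulators. Of the 10, 7 were at least 1.5-fold higher after a prior count of 2 and 0 were lower, against 10.1% of all genes higher and 6.21% lower. *Ppara* had 276 counts in WT and 556 in TKO, a TKO over WT ratio of 2.38 (2.06 to 2.76). *Rxrg* had 525 and 904 counts and a ratio of 2.04 (1.83 to 2.27). The ERRs followed with 1.79 for *Esrrb*, 1.73 for *Esrrg*, and 1.63 for *Esrra*, and the coactivators with 1.62 for *Ppargc1b* and 1.56 for *Ppargc1a*. *Ppard* had a ratio of 1.14 (1.03 to 1.25), *Rxra* 1.01 (0.947 to 1.07), and *Pparg* 0.981 (0.7999 to 1.20), and the counting intervals of the last 2 included 1. With total counts as the scaling, 2 regulators, *Ppara* (1.94) and *Rxrg* (1.66), remained at least 1.5-fold higher, *Ppard*, *Pparg*, and *Rxra* were below 1, and the split of all genes at least 1.5-fold different turned from 61.9% higher to 17.1% higher. The cardiomyocyte markers were higher in the TKO infarct zone too, 14 of 15 at least 1.5-fold, with a median ratio of 1.94. Divided by that median, the ratio was 1.23 for *Ppara*, 1.05 for *Rxrg*, and 0.506 to 0.926 for the 8 others, and divided by the ratio of the summed marker counts it was 1.18 for *Ppara* and 1.01 for *Rxrg*.

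**Figure D3:**
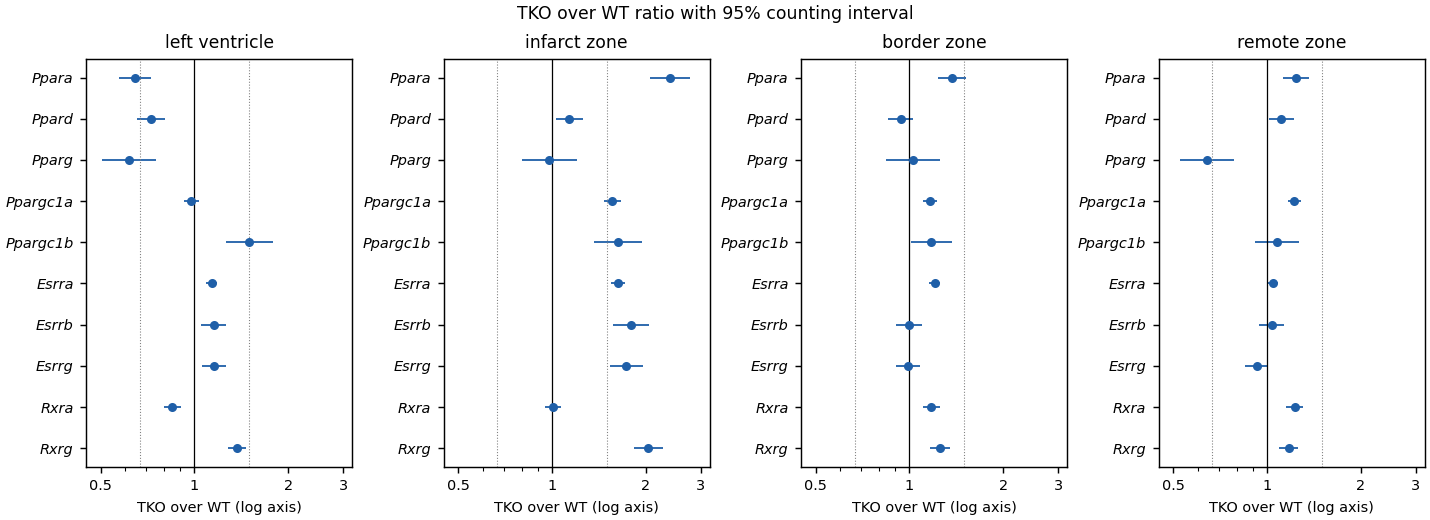
TKO over WT ratio (log axis) of each regulator in the 4 regions, with 95% counting intervals, 1 library per genotype and region. Dotted lines mark 1.5-fold. In the infarct zone 7 regulators lie to the right of the 1.5-fold line, and in the border zone 0 lie beyond either line.

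In the LV the 3 PPARs and *Rxra* had TKO over WT ratios with intervals below 1, and *Ppargc1b*, *Rxrg*, and the ERRs had intervals above 1. *Pparg* (0.618, 0.506 to 0.753) and *Ppara* (0.646, 0.572 to 0.728) were at least 1.5-fold lower in TKO, 2 of 10 against 8.74% of all genes, and 0 were at least 1.5-fold higher, against 5.69%. *Ppard* had a ratio of 0.726 (0.656 to 0.803) and *Rxra* 0.849 (0.797 to 0.905). *Ppargc1b* was the highest at 1.499 (1.26 to 1.79), just inside the limit once the prior count was added, followed by *Rxrg* at 1.37 (1.28 to 1.46). *Esrra*, *Esrrb*, and *Esrrg* had ratios of 1.14, 1.15, and 1.16, and *Ppargc1a* 0.978. Adipocyte markers moved with the PPARs here. *Plin1*, *Lep*, and *Ucp1* were at 0 counts in the TKO LV and had 34, 45, and 112 counts in the WT LV, *Cidec* had 388 counts in WT and 6 in TKO, *Cfd* had 1144 and 17, and *Fabp4*, which endothelial cells also express, was 18312 and 12568 counts. Their part in the *Pparg* and *Ppara* values was not tested. *Ppara* in the WT LV (26.5 CPM) lay between the WT border and remote zone values and the TKO ones, and the TKO LV (17.1 CPM) was the low one. Within TKO hearts *Ppara* was 1.71 times its LV level in the border zone and 1.77 times in the remote zone, where it was the 1 regulator of 10 past 1.5-fold (8.22% of all genes were higher and 4.37% lower in the remote zone). In the TKO border zone *Rxrg* was lower than in the LV (0.660), against 4.83% of all genes lower and 10.5% higher. In the WT border zone *Pparg* was lower than in the LV (0.650), against 6.52% of all genes lower and 12.3% higher. With total counts *Rxrg* (0.680) and *Pparg* (0.716) were not past 1.5-fold in these comparisons, and the share of higher among the WT border zone genes past it moved from 65.3% to 79.1%. In the WT remote zone 0 of 10 regulators were past 1.5-fold, against 8.79% of all genes higher and 5.38% lower.

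In the border zone 0 of 10 regulators differed by 1.5-fold between genotypes, against 3.61% of all genes higher and 8.32% lower in TKO, with ratios from 0.936 for *Ppard* to 1.37 for *Ppara*. In the remote zone *Pparg* was lower in TKO (0.641, 0.524 to 0.783), 1 of 10 against 6.32% of all genes lower, and 0 regulators were higher, against 3.13%. The other remote zone ratios ran from 0.926 for *Esrrg* to 1.24 for *Ppara*. Across the 4 regions *Rxrg* and *Esrra* were higher in TKO in 4 of 4 pairs of libraries, as was *Ppargc1b*. The remote zone interval of *Ppargc1b* included 1 (0.918 to 1.26). The share of all genes higher in 4 of 4 pairs was not computed. The cardiomyocyte markers had median ratios of 1.14, 1.94, 1.16, and 1.14 in the LV, infarct, border, and remote zones. Divided by these medians, *Rxrg* stayed above 1 in each region (1.03 to 1.20). In the same order *Esrra* was 0.996, 0.839, 1.04, and 0.917, and *Ppargc1b* 1.31, 0.838, 1.01, and 0.945.

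No regulator passed the test of genotype across the 4 regions. In the additive edgeR fit, 0 of 10 were called (adjusted p from 0.205 to 0.845), against 0.0769% of all genes called higher and 0.0615% lower, and DESeq2 also called 0 of 10. The unadjusted p of edgeR was under 0.05 for 3 of 10, against 16.2% of all genes. These were *Rxrg* (log2 fold change 0.50), *Ppargc1b* (0.40), and *Esrra* (0.30). Whether the genotype difference in the infarct zone departed from that in the other 3 regions was tested with an added term. The unadjusted p of edgeR was under 0.05 for 6 of 10 regulators, against 7.83% of all genes. By edgeR (adjusted p at least 0.41) or DESeq2, 0 of 10 regulators were called, and among all genes edgeR called 0% higher and 0.00769% lower. That outcome turned on the LV pair. Without both LV libraries the departure was called for 5 of 10 regulators, all higher, *Ppara* (log2 0.87, adjusted p = 0.0108), *Esrrg* (0.85, adjusted p = 0.00793), *Esrrb* (0.82, adjusted p = 0.0106), *Rxrg* (0.75, adjusted p = 0.00863), and *Esrra* (0.54, adjusted p = 0.0319), against 6.29% of all genes called higher and 0.592% lower by edgeR. In that fit, chosen after seeing the data and left with 1 residual degree of freedom, 11 of 15 cardiomyocyte markers were also called higher (median log2 0.80, regulators 0.53). The departure of the LV from the other 3 regions was called for 0 of 10 regulators by edgeR or DESeq2, against 0.423% of genes lower and 0.223% higher by edgeR. The unadjusted p of edgeR was under 0.05 for 2 of 10, *Ppara* (log2 -1.27, adjusted p = 0.192) and *Ppard* (log2 -0.54, adjusted p = 0.202). That share was 16.8% among all genes, so 2 of 10 is near the background.

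**Figure D4:**
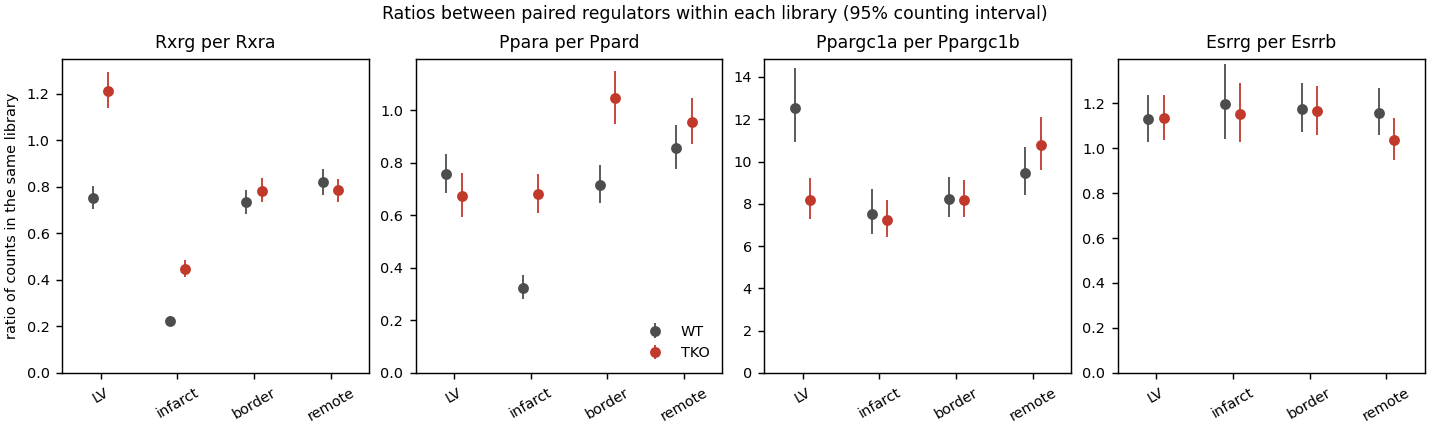
Ratio of the counts of 2 regulators within the same library (vertical axis from 0), with 95% counting intervals, WT gray and TKO red. *Rxrg* per *Rxra* is lowest in both infarct zone libraries and highest in the TKO LV (1.21), and *Esrrg* per *Esrrb* is nearly level.

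Ratios between 2 regulators of the same library need no scaling between libraries and show which of a pair of relatives changed more. *Rxrg* per *Rxra* was 0.221 (0.201 to 0.243) and 0.448 (0.414 to 0.485) in the infarct zone of WT and TKO hearts, whereas it was 0.733 to 0.820 in the border and remote zones of both genotypes and in the WT LV, and 1.21 in the TKO LV. The balance of the RXR forms in the bulk RNA was thus lower in *Rxrg* in both infarct zones. The cardiomyocyte markers were lower in these libraries too, and their part in this ratio was not tested. *Ppara* per *Ppard* was 0.324 (0.282 to 0.372) and 0.680 (0.609 to 0.758) in the same pair of libraries, and the TKO value was close to the ratios of the WT LV (0.757), the TKO LV (0.673), and the WT border zone (0.715). The highest *Ppara* per *Ppard* ratios were 1.05 in the TKO border zone and 0.954 in the TKO remote zone. *Ppargc1a* per *Ppargc1b* was 7.54 in the WT and 7.25 in the TKO infarct zone, intervals that overlapped, and its highest value was 12.5 in the WT LV (10.9 to 14.4). *Esrrb* per *Esrra* ran from 0.158 in the WT infarct zone (0.141 to 0.176) to 0.214 in the WT border zone (0.199 to 0.231).

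Genes on which these regulators are known to act fell with them in the infarct zone. Of 25 PPARα/δ target genes, chiefly of fatty acid uptake and β-oxidation, 23 were called lower and 0 higher against the LV (median log2 fold change -1.86). The lowest were *Ucp3*, a mitochondrial uncoupling protein, at -3.66 and *Pdk4*, the kinase that holds back pyruvate oxidation, at -3.59. *Cpt1a*, the liver form of carnitine palmitoyltransferase, had a value of -0.02 and was not called. Of 24 PGC-1/ERR target genes of mitochondria, 21 were called lower and 0 higher (median -1.57), led by *Ndufv1*, a subunit of complex I, and *Cox6a2*, the muscle form of a complex IV subunit, at -1.76 and -1.75. *Nrf1*, *Gabpb1*, and *Idh3a* were the 3 not called. Of 11 tested PPARγ target genes of adipocytes, 6 were lower, with *Cidea* (-1.63) and *Lpl*, lipoprotein lipase (-1.59), the lowest, and *Cebpa* was higher (1.98). The background was 28.6% of all genes called lower and 28.2% higher, and the cardiomyocyte markers had a median of -1.4997. Many of these target genes are expressed chiefly in cardiomyocytes, and that part was not tested.

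**Figure D5:**
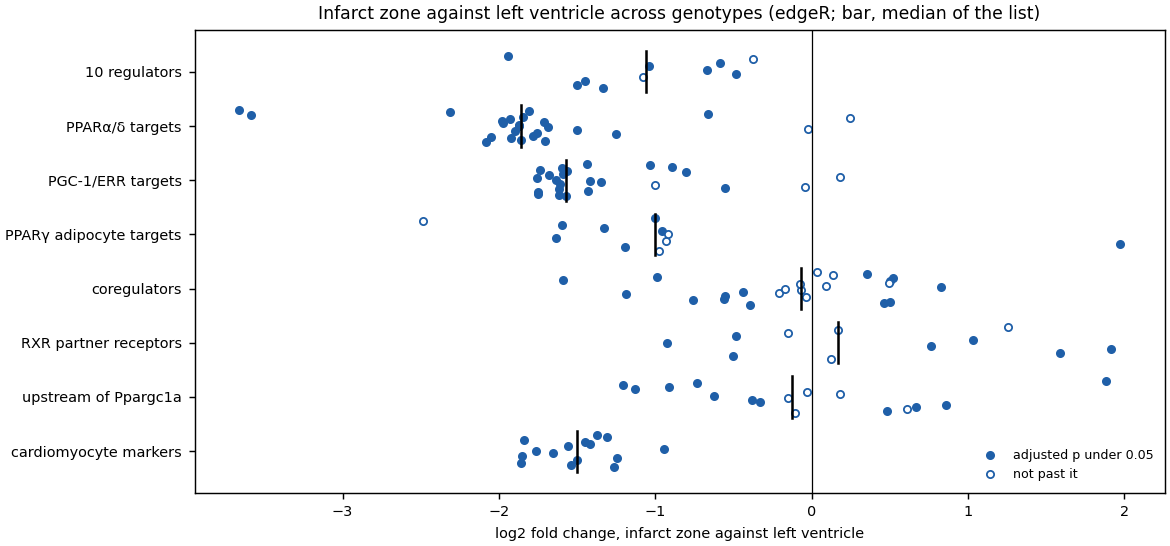
Log2 fold change of each gene, infarct zone against LV across both genotypes (edgeR), by list, with filled points past an adjusted p of 0.05, open points not past it, and a bar at each list's median. Target genes of PPARα/δ and PGC-1/ERR and cardiomyocyte markers lie mostly between -1 and -2, and coregulators lie on both sides of 0 (median -0.07).

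Between genotypes, the target genes also split by region, as did the cardiomyocyte markers. In the infarct zone 14 of 15 of these markers were at least 1.5-fold higher in TKO (median 1.94), against 10.1% of all genes higher and 6.21% lower. In the infarct zone 18 of 25 PPARα/δ target genes were at least 1.5-fold higher in TKO (median ratio 1.92), the highest being *Plin5*, which coats lipid droplets of oxidative tissue (2.71), and *Ucp3* (2.32), and 1 was lower, *Angptl4*, an inhibitor of lipoprotein lipase (0.444). Of 24 PGC-1/ERR target genes 18 were at least 1.5-fold higher (median 1.82), among them *Ckmt2*, mitochondrial creatine kinase (2.34), and 0 were lower. In the LV, 6 of 25 PPARα/δ target genes were at least 1.5-fold lower in TKO and 0 higher, against 8.74% and 5.69% of all genes, whereas 0 of 24 PGC-1/ERR target genes differed by that much in either direction. *Pdk4* was 1312 CPM in the WT LV and 420.1 in the TKO LV (ratio 0.320), and 60.7 to 161.7 CPM in the 6 zone libraries. *Ucp3* was 171.2 and 73.6 CPM in the WT and TKO LV (ratio 0.430) and 6.22 to 39.0 in the zones. Both genes were highest in the 2 LV libraries, and the part of the adipocyte RNA of the WT LV in these values was not tested. *Acot1*, *Angptl4*, and *Ehhadh*, also among the 6 and named after their values were seen, had TKO over WT ratios of 0.461, 0.627, and 0.627 in the LV. In the border zone 3 PPARα/δ target genes were higher in TKO, among them *Ucp3* (1.56), and *Angptl4* was lower (0.399). *Angptl4* was the 1 target gene called lower in the border zone than in the LV (log2 -2.49, adjusted p = 0.03 by edgeR). In the remote zone *Idh3a*, a citric acid cycle enzyme, was the 1 PGC-1/ERR target gene past 1.5-fold (6.90), since its level was 10.02 CPM in the WT remote zone and 26.2 to 69.6 elsewhere.

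The partners and controllers of the 10 regulators did not move as a block. Of 23 coregulators tested, 6 were higher and 8 lower in the infarct zone than in the LV (median log2 -0.07), against 28.2% and 28.6% of all genes. The counts of this list and of the next 2 lie near that background. The highest were *Ncoa3*, a steroid receptor coactivator (0.83), and *Pprc1*, the third member of the PGC-1 family (0.52), and the lowest were *Perm1*, a muscle regulator induced by PGC-1 and ERR (-1.59), and *Lpin1*, a phosphatidate phosphatase that coactivates PPARα (-1.18). Among 11 tested RXR relatives and partner receptors 4 were higher, led by the immediate early receptors *Nr4a2* (1.91) and *Nr4a1* (1.59), and 3 lower, led by the retinoic acid receptor *Rarb* (-0.93) and the liver X receptor *Nr1h3* (-0.51). Of 16 tested upstream regulators of *Ppargc1a* 4 were higher and 7 lower. *Twist1*, a repressor of PGC-1α action (1.88), and the CREB coactivator *Crtc3* (0.86) were highest, and *Sirt3*, the mitochondrial deacetylase (-1.21), and *Prkaa2*, the AMPK subunit of muscle (-1.13), were lowest. *Prkaa2* and *Sirt3* had TKO over WT ratios of 1.80 and 1.75 in the infarct zone, and *Twist1* 0.645. *Rarb* was at least 1.5-fold higher in TKO both in the LV (1.59) and in the infarct zone (1.89). In the infarct zone it was the 1 of its 11 list genes higher by that much, and 2 were lower.

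The genes whose level over the 8 libraries was most like that of each regulator were sought by Pearson's r of log2 CPM among 12989 other genes. The 8 libraries share the contrast between infarct zone and other tissue, which dominates these values, so the coefficients are a description of these libraries only. *Rxrg* was most like *Echdc1*, *Amacr*, and *Hopx* (r = 0.999 for each), *Esrra* like *Fam174b*, *Ndufab1*, and *Tmem147* (0.999), *Esrrb* like *Mettl22*, *Yipf7*, and *Ppa2* (0.998), and *Esrrg* like *Yipf7*, *Klhdc2*, and *Higd2a* (0.998). *Ppargc1a* was most like *Gpr157*, *Dsg2*, and *Casz1* (0.997 to 0.998), *Ppara* like *Vps13d*, *Spa17*, and *Parp6* (0.985 to 0.990), and *Ppargc1b* like *Ush1c*, *Gm6505*, and *Bdh1* (0.979 to 0.992). The best matches of the remaining 3 were lower, with *Ppard* most like *Plekhm2* (0.981), *Rxra* like *Furin* (0.979), and *Pparg* like *AI837181* (0.975). Between regulators, r was 0.997 for *Esrrb* and *Esrrg* and 0.212 for *Pparg* and *Ppargc1b*, the highest and the lowest of the pairs.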

How the data were processed

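RNA-seq was performed on total RNA (Direct-zol kit, libraries by GENEWIZ) from LV tissue and 3 zones around the infarct (infarct, border, remote) of WT and TKO hearts, with 1 library for each of the 8 combinations. The values are estimated counts per gene in whole numbers, which the authors deposited as 1 table. Per the labels and the submitters' processing notes, reads were trimmed with Trim Galore 0.6.5, quantified with kallisto 0.46 against mm10 transcripts, and summed to genes with tximport, and edgeR 3.34.1 was used. Estimates of this kind share ambiguous reads between similar transcripts, so a count is not an exact read tally. All 8 columns matched a sample by name, and 0 other columns were used.

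Here, genes whose mean CPM reached 1 were kept (12999 of 16994, of which 16964 had a count), TMM factors were computed, and log2 levels used a prior count of 2 (R 4.3.3, edgeR 4.0.16). A ratio of 2 libraries was given with an exact (Clopper-Pearson) 95% binomial interval, which covers counting error only, and a gene was counted as different past 1.5-fold after the prior count. Differences between regions and between genotypes were tested in an additive edgeR quasi-likelihood model of region and genotype with 3 residual degrees of freedom, and the departure of the genotype difference in the infarct zone or in the LV with an added term. P-values were adjusted over all genes tested (Benjamini-Hochberg, threshold 0.05) and bear on these libraries, not on mice. Gene loci, strands, and exon lengths came from GENCODE on GRCm38, and promoter windows from RefSeq. The edgeR terms for genotype, for the infarct zone against the LV, and for the departures of the infarct zone and the LV were tested on simulated data. The border and remote zone terms, the DESeq2 fits, and the fits without the LV libraries were not.

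The 10 regulators and the gene lists were chosen with earlier results of these data known. All 10 were named. From each list at most 2 genes with the highest and 2 with the lowest values among those called were named, besides those said to be chosen later and short sets of uncalled genes. The 3 genes most like each regulator were taken by Pearson's r. Listed genes absent from the table or under the filter were not analysed here. The values of some listed genes are not reported here. Alternatives were total counts or DESeq2 size factors as the scaling, no filter, the 13 mitochondrial genes left out, a prior count of 0.5, the Wald test of DESeq2 1.42.0, each library left out in turn, and markers summed. The LV departure, the ratios within a library, and the fits without the LV libraries were added after seeing the data. Figures were drawn with matplotlib 3.10.9.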

Additional observations from a re-analysis of the deposited data

Results flagged for a closer look

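*Ppara* was picked out because its genotype difference had opposite directions in 2 tissues. In the LV the TKO library had 0.646 times the WT level (0.572 to 0.728), and in the infarct zone 2.38 times (2.06 to 2.76), with border and remote ratios of 1.37 and 1.24 between them. The LV and the infarct zone were not tested against each other. The term for the LV against the other 3 regions gave a log2 value of -1.27 (adjusted p = 0.192 by edgeR), and that for the infarct zone 1.20 (adjusted p = 0.611).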

How the results depend on the processing

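Of the calls between the infarct zone and the LV, those of *Ppargc1a*, *Esrra*, *Esrrb*, *Esrrg*, and *Rxrg* were past the threshold under all 13 alternatives, and leaving out 1 library gave 5 to 9 regulators called (8 with all libraries), 5 without the WT infarct zone, where *Ppard*, *Pparg*, and *Ppargc1b* were lost, and 5 without the TKO border zone. With total counts, 5 regulators were called in that comparison, log2 values turned to 0.20 for *Ppard*, 0.0131 for *Pparg*, 0.0891 for *Ppargc1b*, and 0.32 for *Rxra*, the WT infarct over LV ratios of *Ppard* and *Ppargc1b* to 1.02 and 1.14, the genotype value of *Rxra* to -0.0288, the LV departures of *Esrrb* and *Rxrg* to 0.0514 and 0.0699, and regulators past 1.5-fold between the infarct zones to 2. The cause lies in the scaling itself, which moves the median of all genes there. Total counts also gave 56 genes called by genotype (18 in the report), 200 against the border zone (93), 18 against the remote zone (0), and 275 for the LV departure (84). Without the filter, 3 remote zone genes were called, and 3969, 4061, 3598, and 3173 genes were past 1.5-fold between genotypes in the LV and the infarct, border, and remote zones (1876, 2116, 1551, and 1228 with it), since more genes were tested. DESeq2 called 337 genes by genotype, 583 in the border and 167 in the remote zone, 159 for the infarct departure (1 by edgeR), and 283 for the LV departure, and gave *Esrrg* an LV departure of -0.00299. Without both LV libraries the infarct departure was called for 895 genes and 5 regulators. The cause was not tested.

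With 1 library left out, genes called ranged from 3 (without the TKO infarct zone) to 72 (without the WT LV) by genotype, from 4716 to 7243 for the infarct zone, from 1 (without the WT remote zone) to 388 (without the TKO LV) for the border zone, from 0 to 65 (without the WT LV) for the remote zone, from 0 to 926 (without the TKO LV) for the infarct departure, and from 0 (without the TKO border zone) to 1462 (without the WT infarct zone) for the LV departure. Regulators called ranged from 0 to 5 for the infarct departure, with 5 only without either LV library, and from 0 to 2 for the LV departure, with 2 without either infarct zone library. Log2 values that changed sign were the genotype difference of *Ppard* (-0.14 to 0.0816), the infarct departure of *Rxra* (-0.26 to 0.00964), and the LV departures of *Esrra* (-0.30 to 0.0191), *Esrrb* (-0.24 to 0.18), *Esrrg* (-0.16 to 0.28), and *Rxrg* (-0.21 to 0.18). No paired analysis was possible because the labels carry no replicate numbers, and libraries were matched only through the region and genotype terms of the fits. Counting error is small for the 10 regulators (163 to 5199 counts a library), and the absence of replicate libraries, not depth, limits what these ratios show.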

Other observations

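Of 11 tested RXR relatives and partner receptors, 2 were at least 1.5-fold higher and 3 lower in the TKO LV than in the WT LV. The shares of all genes were 5.69% and 8.74%. *Rarb* had 201 counts in the WT LV and 304 in the TKO LV (ratio 1.59), and *Vdr* had 17 and 32 (1.88). *Nr4a1* had 346 and 117 (0.362), and *Thrb*, the gene of thyroid hormone receptor β, had 529 and 292 (0.586). *Nr4a2*, named after its values were seen, had 57 and 34 (0.644). These are ratios of 1 library to 1 library, and the difference from other tissues was not tested.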
